A study of Mus musculus with 4 samples.

Results

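Small RNA libraries from bone marrow-derived macrophages (BMDMs) that lack native miR-146a were pooled and set against wild-type libraries. The mutant side held 2 of the 4 libraries of the series, 1 of cells null for mir-146a (KO) and 1 of cells homozygous for the 3′F allele, and the other 2 were wild-type (WT A and WT B). The comparison asks which miRNAs moved the same way in both mutants by more than the spread within each pair of libraries, and on which miRNAs the mutants parted. The deposited table lists 1979 mature miRNAs, of which 251 had a mean of at least 10 reads per 1000000 counts (RPM) over the 4 libraries and were compared.

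The mice were a mix of the 129 and B6 strains, 6 to 7 months old, with 3 animals per genotype. Their marrow was cultured for 8 to 9 days with M-CSF at 10 ng/ml, from 85000 cells/cm2, and then held for 16 h in medium without LPS, so all 4 libraries are from resting cells. The KO allele deletes mir-146a, and the 3′F ("non-seed swap") allele exchanges the 3′ part of the mature strand with that of the opposite strand of the hairpin. Each mutant line was derived from its own targeted embryonic stem cell line and has a single library here. The labels do not say whether a library pools mice, and the WT libraries are given as separate cultures, so spreads and p-values describe these cultures only. Any difference between the alleles is part of the spread within the mutant side.

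MiRNAs guide Argonaute proteins to messenger RNAs, chiefly through their seed. MiR-146a is induced by NF-kB, has Irak1 and Traf6 as established targets, and acts as a brake on innate immune signalling in macrophages. The study itself did not see TRAF6 altered in its in vitro experiments. MiR-146b carries the same seed and is made from another chromosome. A miRNA is often made together with its neighbours from 1 primary transcript, so that members of a cluster tend to share their transcription.

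The mature sequences that the results turn on are shown first, in RefSeq's version for GRCm38.p6, 5′ to 3′, with the seed (bases 2 to 8) in capitals. RefSeq entries matched 228 of the 251 miRNAs. miR-486a, miR-486b and miR-34c are among those named without a sequence. The miR-146 pair shares its seed:
miR-146a-5p: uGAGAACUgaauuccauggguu
miR-146b-5p: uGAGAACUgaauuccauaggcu
The synthetic mimics of the wild-type and 3′F strands show the swap, here with the positions at which they differ (13 to 20, 8 positions) in capitals:
WT mimic: ugagaacugaauUCCAUGGG
3′F mimic: ugagaacugaauAAGUGUCC
These miRNAs were lower in both mutants than in both WT libraries, and are grouped so that shared seeds stand together:
miR-451a: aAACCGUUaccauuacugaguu
miR-7a-5p: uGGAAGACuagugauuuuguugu
miR-7b-5p: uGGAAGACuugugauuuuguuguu
miR-19a-3p: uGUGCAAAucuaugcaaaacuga
miR-19b-3p: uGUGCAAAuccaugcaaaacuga
miR-17-5p: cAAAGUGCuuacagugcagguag
miR-18a-5p: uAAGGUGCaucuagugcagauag
let-7e-5p lay higher in both mutants and miR-98-5p lower, with 1 seed between them, while the pair of miR-1843 strands that lay higher is the same stretch shifted by a base:
let-7e-5p: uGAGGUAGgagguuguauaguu
miR-98-5p: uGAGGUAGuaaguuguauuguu
miR-1843a-5p: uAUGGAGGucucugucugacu
miR-1843b-5p: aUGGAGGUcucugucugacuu
miR-7043-3p: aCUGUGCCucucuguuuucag
Besides miR-146b-5p, the mutants diverged most on these, the first 4 with KO above 3′F and the rest with KO below:
miR-139-3p: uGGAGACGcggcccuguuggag
miR-139-5p: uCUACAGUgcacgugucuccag
miR-582-3p: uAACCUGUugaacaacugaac
miR-362-3p: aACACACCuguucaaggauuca
miR-504-5p: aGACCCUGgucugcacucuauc
miR-212-5p: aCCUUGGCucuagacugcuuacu
miR-147-5p: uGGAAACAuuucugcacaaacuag
miR-1964-3p: cCGACUUCugggcuccggcuuu
miR-132-3p: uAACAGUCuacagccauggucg

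Totals ran from 11410940 counts in WT B to 19087640 in KO, so 10 RPM stands for at least 114 counts. Counting error is thus small for most members, and intervals, where given, are 95% Wilson intervals that cover counting error only. miR-21a-5p alone took 33.4% to 37.9% of each total. The macrophage markers miR-223-3p (1466 to 1636 RPM), miR-142a-3p (1071 to 1721 RPM) and miR-511-3p (65.6 to 80.8 RPM) were present in every library, while miR-124-3p of neurons was listed at 0 and miR-133a-3p of muscle had at most 1 count. The epithelial marker miR-200b-3p was at 358 to 707 RPM and liver miR-122-5p at no more than 1.84 RPM.

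The miRNA whose native form both mutants lack was the single member that passed the pooled test. Its loss defines the mutant side, so this call follows from the genotypes and serves only as a check of them. miR-146a-5p, made from Mir146 at chr11:43374397-43374461 on the minus strand in no other annotated gene, stood at 6253 RPM (A) and 5485 RPM (B) in the WT pair, the order kept for the pair throughout, 13.4 in KO and 6.64 in 3′F. The groups did not overlap, and the mean of 5869 ± 543 RPM in WT (SD, n = 2) was 585 times that of the mutants, 10.0 ± 4.81 RPM (SD, n = 2). edgeR's quasi-likelihood test gave a log2 fold change of -9.17 (SE 0.37, 95% interval -10.04 to -8.29) with a Benjamini-Hochberg adjusted p of 1.24e-05. The counts left in the mutants were fractional, at 256.5 in KO and 107.5 in 3′F, and how many of them are reads shared with another line, such as miR-146b-5p, was not tested. The strand made from the 3′F allele was counted on a line of its own, at 171 counts (10.6 RPM) in 3′F and 0 in the other 3 libraries. Its mean over the 4 libraries was below the minimum, and how well it is captured relative to the native strand is not known from these data. By qRT-PCR against synthetic standards, the study reported similar absolute levels of the 3′F and native strands in most tissues and cells it examined.

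Over the 251 miRNAs the test called 1, or 0.398% of those tested, and no other adjusted p was below 0.05. At an unadjusted p below 0.05 there were 20, of which 10 were higher and 10 lower in the mutants. DESeq2 called 5 miRNAs, adding miR-451a, miR-486a-5p, miR-486b-5p and miR-298-5p to miR-146a-5p. An edgeR fit on library totals without TMM scaling and limma on log2(RPM + 1) called 4 each. The count also hung on single libraries, at 0 without WT A or without WT B, 4 without KO and 31 without 3′F, where KO alone stood for the mutants. With 2 libraries on each side, an exact two-sided permutation test of a single miRNA cannot give a p below 0.333, and the shared shifts that follow are therefore descriptions set against the spread, not tests.

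Both mutants lay above both WT libraries for 40 miRNAs (15.9% of the 251) and below both for 69 (27.5%). A miRNA was called separated where, on the log2(RPM + 1) scale, the gap between the groups was also larger than the difference within either pair. There were 8 such miRNAs on the higher side (3.19%) and 21 on the lower side (8.37%). Their median distance between group means was 0.34, and 22 of the 29 differed by less than 0.5. Counts were whole in every library for 11 of the 29, beside 152 of the 251, and the others had partly fractional counts. Among the 251, 2 miRNAs lay on one side of both WT libraries with each mutant at least 2-fold from the WT mean on the log2(RPM + 1) scale, and these were miR-146a-5p and miR-451a. The split between directions depended on scaling. Of the 251, 51 lay above both WT libraries and 54 below with TMM factors, and 52 and 53 with RLE factors. With TMM factors 13 were separated as higher and 15 as lower, and 16 of the 29 remained under both TMM and RLE factors, 5 higher and 11 lower. The median of all 251 differences was -0.05 with deposited RPM and -0.02 with TMM.

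**Figure D1:**
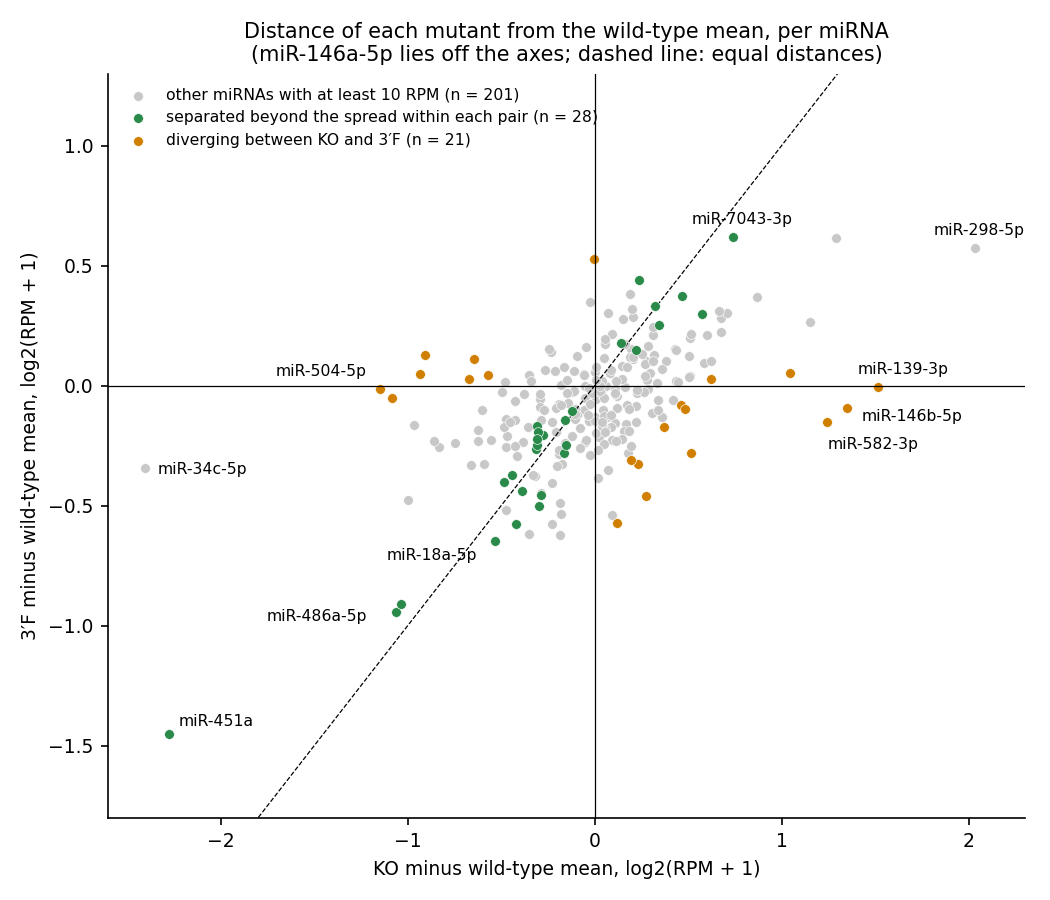
Each point is 1 of 250 miRNAs, with the distance of KO from the wild-type mean on the x axis and that of 3′F on the y axis, both on the log2(RPM + 1) scale and both taken against the same wild-type libraries. The separated miRNAs (28 without miR-146a-5p, which lies off the axes) sit near the dashed line of equal distances, the 21 diverging ones lie near the x axis or off the line, and miR-34c-5p and miR-298-5p lie on one side but far from the line.

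The erythroid miRNAs made up the largest shared difference after miR-146a-5p. miR-451a, which is processed by Argonaute 2 in red cell precursors, stood at 18.7 and 29.97 RPM in the WT pair, 4.09 in KO and 8.03 in 3′F. Both mutants were below both WT libraries, at a mean 4.01 times lower, but the WT libraries differed from each other by 0.65 on the log2 scale and the mutants by 0.83. The fitted log2 fold change was -1.95 (SE 0.38) with an adjusted p of 0.165 by edgeR's quasi-likelihood test.

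miR-486a-5p, abundant in red cells and muscle, was at 74.1 and 63.5 RPM in the WT pair, 32.3 in KO and 35.2 in 3′F, a log2 fold change of -0.999 (SE 0.21, adjusted p 0.165 by edgeR). miR-486b-5p gave nearly the same values, 76.6, 64.5, 33.8 and 37.0 RPM. The counts of both lines were partly fractional, and these near-identical lines are not separate evidence. Both members were close to 2-fold lower in each mutant, and the mutants differed from each other by 0.12.

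Of the 7 erythroid miRNAs listed, 3 passed the minimum, and these were separated as lower under each of the 3 scalings, beside 8.37% of the 251 with deposited RPM. miR-451a passed only through the WT libraries, where it is high, and the miR-486 lines count as 1 result, so the count is a description. The 4 that did not pass were miR-144-3p (7 and 7 counts in WT, 2 and 2 in the mutants), miR-144-5p (14 and 21 against 3 and 7), miR-486a-3p (3.98 and 0.88 RPM in WT, 3.12 and 3.43 in the mutants) and miR-486b-3p (at most 4 counts). miR-486a-3p thus overlapped between groups while its partner strand did not. Summed over the list, WT A held 175 RPM, WT B 161, KO 73.8 and 3′F 84.4. In bulk cultures, fewer cells of a type and less RNA per cell cannot be told apart. Of the 11 stromal, endothelial and epithelial markers listed, 5 lay below both WT libraries in both mutants, 2 above and 4 overlapped, at any level. Among the 251 miRNAs that passed the minimum, 27.5% lay below and 15.9% above. The summed level of the 11 markers was 576 to 784 RPM in WT and 419 to 571 RPM in the mutants. Most of it was the epithelial miR-200b-3p, at 512 and 707 RPM in WT, 358 in KO and 510 in 3′F. Of the 5 markers that lay below, the stromal marker miR-143-3p was at 4.74 and 4.91 RPM in WT against 2.10 and 2.22 in the mutants. The stromal marker miR-145a-5p, also below, had 0 counts in both mutants and 3 and 2 in WT. The stromal markers miR-199a-3p (3.18 and 3.71 RPM in WT against 3.63 and 3.21), miR-199a-5p and miR-199b-5p overlapped, and miR-10b-5p and miR-126a-5p lay above. The endothelial marker miR-126a-3p overlapped, at 10.7 and 9.82 RPM in WT against 13.2 and 10.3. The part of other cells in the erythroid difference was not tested.

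The miR-17-92 cluster, a set of hairpins that promotes proliferation and is carried by the lincRNA Mir17hg (chr14:115043671-115044506, plus strand), had several strands on the lower side. Of its 7 strands that passed the minimum 5 were below both WT libraries in both mutants and 4 were separated, beside 27.5% and 8.37% of the 251. With TMM factors 4 strands lay below and 2 were separated, with RLE factors 5 and 3, and none lay above under any of the 3 scalings. Of the 251, 54 lay below with TMM and 53 with RLE factors. miR-17-5p, the cluster's abundant member of the AAAGUGC seed family, was at 888 and 1030 RPM in the WT pair, 714 in KO and 640 in 3′F. Its fitted log2 fold change was -0.47 (SE 0.13, adjusted p 0.359 by edgeR), and the lowest WT library lay above the higher mutant. The separated partner strand miR-17-3p differed by only -0.15, at 19.2 and 18.3 RPM in WT (327 and 209 counts), 16.7 in KO and 16.9 in 3′F (318 and 273 counts). It was separated under neither TMM nor RLE factors.

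miR-18a-5p of the same transcript was at 34.2 and 28.3 RPM in WT against 21.2 in KO and 19.5 in 3′F. miR-19a-3p was at 32.1 and 36.1 RPM against 25.8 and 24.9. In both, the mutants lay closer to each other (0.11 and 0.05 apart on the log2 scale) than the WT libraries did (0.27 and 0.16). miR-19b-3p, which has copies at more than 1 locus, had the same order at 62.9 and 63.3 RPM against 52.0 and 54.5, and was separated under neither TMM nor RLE factors. miR-92a-3p was the member with overlap among the abundant strands, at 3874, 5697, 4122 and 3901 RPM in the order WT A, WT B, KO and 3′F.

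The related Mir106b, Mir93 and Mir25 hairpins, in exons and an intron of the replication gene Mcm7 (chr5:138165321-138165818, minus strand), gave 3 of 6 strands below both WT libraries, and miR-93-5p was at 1363 and 1607 RPM against 1211 in KO and 1087 in 3′F. With TMM or RLE factors the same number lay below and 1 strand, miR-106b-3p, above. Over the 13 miRNAs listed for these and the related cluster on chromosome X, 9 passed the minimum, 6 lay lower in both mutants and 4 were separated as lower, with a median of -0.34, and with TMM factors 6 lay lower and 3 were separated. Of 4 expressed miRNAs with the AAAGUGC seed 3 lay lower in both, and both expressed miRNAs with the miR-19 seed did. Mir15b and Mir16-2, in an intron of the condensin gene Smc4 (chr3:69009772-69009996, plus strand), had 3 of 3 strands below both WT libraries under each of the 3 scalings. Their distances were -0.17 to -0.40 with deposited RPM. Of 3 strands of the Mir16-1 and Mir15a hairpins 1 lay below with deposited RPM and 0 with TMM or RLE factors. Of all 251 miRNAs, 69 (27.5%) lay below both WT libraries with deposited RPM, 54 with TMM and 53 with RLE factors. Separated as lower with deposited RPM were 8.37%. No member of these clusters passed the pooled test. The counts of miR-17-5p, miR-18a-5p, miR-19a-3p and miR-19b-3p were partly fractional.

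miR-7a-5p, the most abundant separated miRNA, was named after its values were seen. It was at 8585 and 8106 RPM in the WT pair, 6131 in KO and 6446 in 3′F. Both mutants were thus lower by a similar amount, with a fitted log2 fold change of -0.38 (SE 0.14, adjusted p 0.448 by edgeR). miR-7b-5p, from another chromosome with the same seed, was at 33.2 and 31.3 RPM against 22.8 and 24.2. The lines had fractional counts, and reads shared between these near-identical strands cannot be told apart. With TMM factors miR-7b-5p stayed separated and miR-7a-5p did not.

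On the higher side, every measured strand of the Mir99b, Mirlet7e and Mir125a cluster lay above both WT libraries, 6 of 6 under each of the 3 scalings. Of the 251, 15.9% lay above both with deposited RPM, 51 miRNAs with TMM factors and 52 with RLE factors. The cluster lies in introns and an exon of Spaca6 (chr17:17830194-17830879, plus strand), and its miR-125a and let-7e strands are known to respond to Toll-like receptor signalling in myeloid cells. let-7e-5p was at 1945 and 1891 RPM in the WT pair, 2861 in KO and 2362 in 3′F, a fitted log2 fold change of 0.47 (SE 0.14, adjusted p 0.359 by edgeR). It met the rule for separation narrowly, with a gap of 0.280 against 0.276 between the mutants, and was the cluster's only separated strand with deposited RPM.

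miR-125a-5p was at 1409 and 1578 RPM in WT against 2379 in KO and 1740 in 3′F. miR-99b-5p was at 11142 and 9185 RPM against 14446 and 11757. The minor strands had the same order, with let-7e-3p at 22.1 and 22.4 RPM against 41.6 in KO and 29.1 in 3′F. KO was the higher mutant for all 6 strands, by 0.28 to 0.50 on the log2 scale.

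The families to which these strands belong were less uniform. Of 5 expressed miRNAs of the miR-99/100 and miR-125 families 4 lay higher in both mutants, with a median of 0.37, and miR-99a-5p overlapped. Of the 251 miRNAs, 15.9% lay higher in both mutants and 27.5% lower with deposited RPM. The counts were 51 higher and 54 lower with TMM factors, and 52 and 53 with RLE factors. Of the 9 let-7 members, which restrain proliferation and share the GAGGUAG seed, 3 lay higher in both mutants, 2 lower and 4 overlapped, while with TMM or RLE factors 4 lay higher and 1 lower. miR-98-5p was the separated member on the lower side, at 1507 and 1585 RPM against 1388 in KO and 1302 in 3′F, so that the seed family held separated members on both sides. The counts of let-7e-5p and miR-98-5p were partly fractional.

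miR-7043-3p, from an intron of Rassf4 (chr6:116645978-116646047, minus strand), had the largest separated difference on the higher side. It was at 7.73 and 7.71 RPM in the WT pair, 13.6 in KO and 12.4 in 3′F, a log2 fold change of 0.78 (SE 0.22, adjusted p 0.359 by edgeR). It passed the minimum of 10 RPM only through the mutants. miR-1843b-5p was at 37.8 and 33.3 RPM against 49.5 and 46.3, and miR-1843a-5p at 96.9 and 99.1 RPM against 123 and 124. Since these strands are nearly the same sequence and had fractional counts, they are uncertain as separate results.

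miR-10a-5p, from the Hox gene region of chromosome 11, was at 3888 and 4080 RPM in WT against 4700 in KO and 5402 in 3′F, and here 3′F was the farther mutant. miR-27a-3p, made from 1 cluster with miR-23a and miR-24, was at 5547 and 5647 RPM against 6529 and 6198. Of that cluster's 6 expressed strands 2 lay higher in both mutants, both from Mir27a, and 1 did with TMM or RLE factors. Its miR-23a and miR-24 strands overlapped, with miR-23a-3p at 8944 and 8822 RPM in WT, 7841 in KO and 8907 in 3′F. miR-182-5p was at 393 and 395 RPM against 434 and 446, and its neighbour miR-183-5p also lay higher in both mutants at 289 and 330 RPM against 355 and 385. miR-191-3p was at 10.8 and 11.6 RPM against 14.5 and 13.5, while strands of its neighbour Mir425 lay lower in both. miR-10a-5p, miR-27a-3p, miR-182-5p and miR-191-3p each differed by less than 0.5 on the log2 scale, and miR-10a-5p and miR-182-5p were separated with deposited RPM but under neither TMM nor RLE factors.

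**Figure D2:**
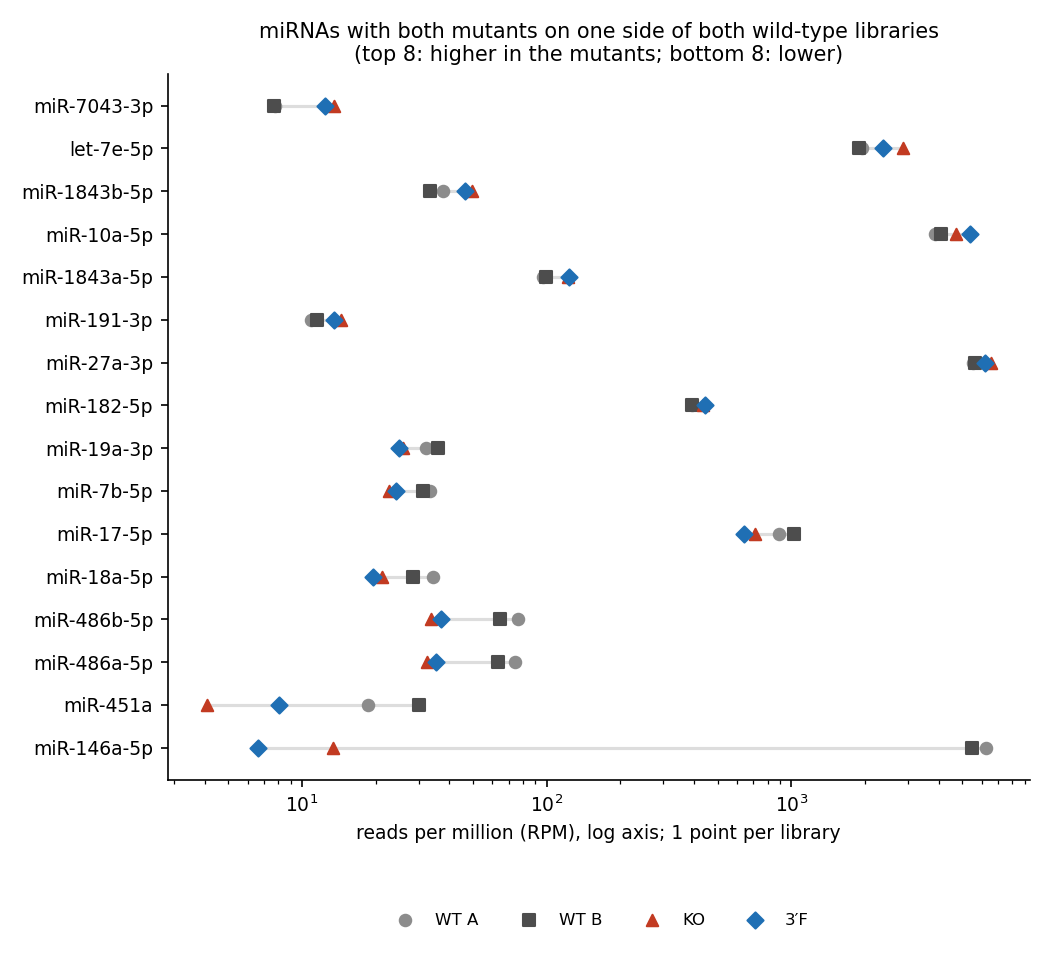
Level in RPM on a log axis in each of the 4 libraries for the 8 miRNAs with the largest separated difference in each direction. For each the KO and 3′F points lie on one side of both WT points, and outside the erythroid miRNAs and miR-146a-5p the distances are small (some points overlap).

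The hairpin clusters showed whether neighbours kept together. Within 10 kb of each other, 23 clusters held 2 or more expressed strands each. In the Mir200b, Mir200a and Mir429 cluster (chr4:156053905-156055750, minus strand, in introns of Ttll10), known for keeping epithelial character, 4 of 4 strands were below both WT libraries with deposited RPM, 3 with TMM and 2 with RLE factors. Of the 251 miRNAs, 69 (27.5%) lay below both with deposited RPM, 54 with TMM and 53 with RLE factors. miR-200b-3p was at 512 and 707 RPM in WT, 358 in KO and 510 in 3′F, so 3′F lay just under WT A. miR-200a-5p showed a similar order, at 14.5 and 16.0 RPM in WT, 7.33 in KO and 13.5 in 3′F. None of these strands was separated, because the gap between the groups was not larger than the larger difference within a pair.

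**Figure D3:**
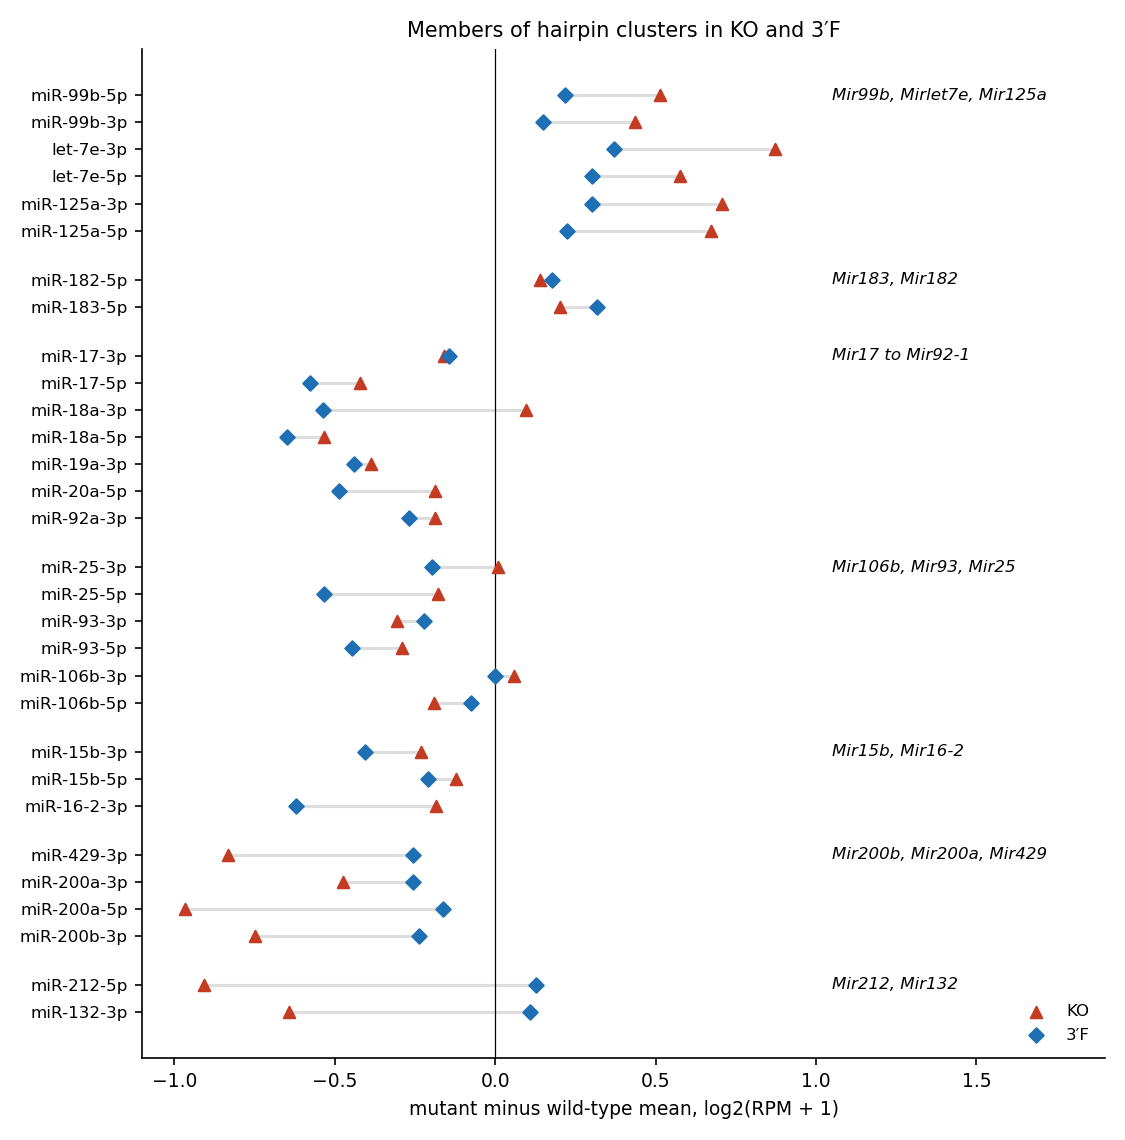
Distance of KO (triangles) and 3′F (diamonds) from the wild-type mean, in log2(RPM + 1), for each expressed strand of 7 hairpin clusters. All 6 strands at the top lie above 0 in both mutants, those of the Mir15b and Mir200b clusters lie below 0 in both, and the Mir212 and Mir132 strands at the bottom lie on opposite sides.

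Among partner strands with at least 40 counts in all, 16 of 20 moved to the same side as the separated strand on average (80.0%, miR-146 left out). Without the miR-17 strands, which are each other's partner, 14 of 18 did (77.8%). For expressed miRNAs that were not separated the share was 61.6% of 172. That set counts many hairpins once from each strand and holds partners of separated strands. These partner strands come from the same libraries, and the shares are a description. The median GC content was 47.6% for the 8 separated higher miRNAs, 40.9% for the 18 separated lower ones with a sequence and 47.6% for all 228. Across 227 miRNAs the pooled difference and GC content had a Pearson correlation of 0.13, while the value was 0.08 for KO alone, 0.19 for 3′F alone and 0.14 for the difference between the WT libraries.

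In all, 80 miRNAs lay on one side in both mutants without being separated, some of them at very unequal distances. miR-34c-5p, a p53 target that restrains the cell cycle, was at 193 and 180 RPM in the WT pair, 34.5 in KO and 147 in 3′F. Both mutants were lower, KO by 2.40 and 3′F by 0.34 on the log2 scale. The pooled fit gave -0.99 with an adjusted p of 0.574 by edgeR, since the 2.06 between the mutants counts as spread. miR-34a-5p, made from another chromosome, overlapped between the groups at 163, 139, 145 and 128 RPM in the order WT A, WT B, KO and 3′F. Of the 7 miR-34 family members listed, at any level, 4 lay below both WT libraries in both mutants, 0 above and 3 overlapped. Under the minimum, miR-34b-5p was at 8.76, 8.72, 2.02 and 7.81 RPM and miR-34b-3p at 10.5, 12.4, 1.52 and 8.71 RPM in that order. The partner strand miR-34c-3p overlapped, at 2.99, 4.12, 0.21 and 3.83 RPM.

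miR-298-5p, named after its values were seen, was at 9.61 and 9.29 RPM in WT against 41.8 in KO and 14.6 in 3′F. It passed the minimum only through the mutants, and its fitted log2 fold change was 1.59 (SE 0.44, adjusted p 0.359 by edgeR). miR-100-5p was at 45.4 and 41.8 RPM against 98.1 in KO and 52.5 in 3′F. In 73 of the 109 miRNAs with both mutants on one side KO was the farther mutant, and 3′F was in the other 36.

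The mutants diverged on 21 miRNAs. This class holds miRNAs whose mutants lay on opposite sides of both WT libraries, or with 1 mutant inside the WT range, and at least 0.5 apart on the log2 scale and farther apart than the WT libraries. KO was above 3′F for 13 (5.18% of the 251) and below it for 8 (3.19%). With TMM factors the split was 7 above and 11 below, and 15 of the 21 diverged under all 3 scalings. On opposite sides at any distance there were 34 miRNAs (13.5%). KO and 3′F have 1 library each, so no difference between them was tested. Their counting intervals were apart for 21 of 21. The class already asks for a distance of at least 0.5 at this depth, so this nearly follows from the choice and adds no support.

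KO lay outside the WT range for 194 of all 251 miRNAs and 3′F for 168, at any distance. In 8 of the 21 diverging miRNAs 3′F lay inside the WT range and KO outside, and in 2 the converse held. The miR-139 strands and miR-146b-5p are among the 8. miR-139-3p was at 24.4 and 27.6 RPM in the WT pair, 76.1 in KO and 25.9 in 3′F. miR-139-5p, from the same hairpin in an intron of Pde2a (chr7:101475376-101475443, plus strand), was at 201, 181, 395 and 198 RPM in that order. Both strands were high in KO alone, by 1.52 and 1.05 above the WT mean on the log2 scale. With TMM or RLE factors 3′F left the WT range for miR-139-3p and the miRNA was then no longer in the class.

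miR-146b-5p, the family member with the seed of miR-146a-5p (Mir146b, chr19:46342762-46342870, plus strand, in an intron of Mfsd13a), was at 1558 and 1916 RPM in the WT pair, 4410 in KO and 1619 in 3′F. Only KO left the WT range. Pooling the mutants gave a log2 fold change of 0.81 (SE 0.38, adjusted p 0.499 by edgeR), and without KO the value was -0.044 and without 3′F it was 1.34. Its partner strand miR-146b-3p, with 38 to 171 counts, was at 2.40, 3.33, 8.96 and 3.21 RPM in that order. miR-146b-5p had partly fractional counts.

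miR-582-3p, from an intron of Pde4d, was at 28.8 and 33.3 RPM in WT, 74.7 in KO and 27.8 in 3′F, so that 3′F lay just under both WT libraries. The other miRNAs with KO on top among the 8 largest had smaller distances. miR-362-3p was at 81.5 and 67.8 RPM in WT, 107 in KO and 61.1 in 3′F. let-7f-2-3p was at 12.5 RPM in both WT libraries, 15.3 in KO and 8.79 in 3′F. miR-450b-3p (12.5, 10.9, 12.8 and 7.53 RPM) and let-7c-1-3p (62.6, 81.8, 111 and 73.0 RPM) complete them, again in the order WT A, WT B, KO and 3′F.

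On the other side, miR-504-5p, from an intron of Fgf13 on chromosome X and known to target p53, was at 79.3 and 94.7 RPM in the WT pair, 38.6 in KO and 85.8 in 3′F. The KO interval of 35.9 to 41.4 RPM was far from that of 3′F, 81.4 to 90.5 RPM. miR-1964-3p was at 163 and 191 RPM in WT, 91.7 in KO and 182 in 3′F. miR-147-5p, from a strand pair induced by Toll-like receptors, was at 11.7 and 16.0 RPM in WT, 5.92 in KO and 13.2 in 3′F. In all 3 KO alone was low.

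miR-212-5p and miR-132-3p are made from 1 locus on chromosome 11 (chr11:75173388-75173747, plus strand) and are inducible by CREB and Toll-like receptor signalling. They were the 1 cluster in which each strand that passed the minimum diverged. miR-212-5p was at 24.95 and 28.1 RPM in WT, 13.7 in KO and 29.0 in 3′F, and miR-132-3p at 29.7 and 30.2 RPM, 18.8 and 32.4. In both, KO was below and 3′F just above both WT libraries. miR-342-3p, a myeloid miRNA in an intron of Evl, had the same order at higher depth, with 749 and 732 RPM in WT, 464 in KO and 754 in 3′F. miR-1839-3p did too, at 12.4, 12.7, 8.12 and 13.0 RPM. The partner strands miR-132-5p and miR-212-3p were under the minimum, and their mutants were less than 0.5 apart. miR-132-5p was at 6.44 and 5.70 RPM in WT, 4.40 in KO and 5.31 in 3′F, with both mutants below both WT libraries. miR-212-3p was at 2.46 and 2.89 RPM in WT, 2.25 in KO and 3.46 in 3′F.

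In miR-222-5p and miR-21a-3p 3′F lay outside the WT range and KO inside it. miR-222-5p was at 345 and 381 RPM in WT, 362 in KO and 524 in 3′F, while its partner strand miR-222-3p was at 14620, 22439, 14996 and 16886 RPM. miR-21a-3p was at 39.5 and 27.3 RPM in WT, 38.9 in KO and 26.0 in 3′F, just under WT B, and was not in the class with TMM or RLE factors. The partner strand of a diverging miRNA kept the same order of KO and 3′F in 14 of 18 cases (77.8%). Without the miR-139 strands, which are each other's partner, 12 of 16 did (75.0%), beside 120 of 174 (69.0%) for expressed miRNAs that did not diverge. That last set also counts many hairpins once from each strand and holds partners of diverging miRNAs.

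**Figure D4:**
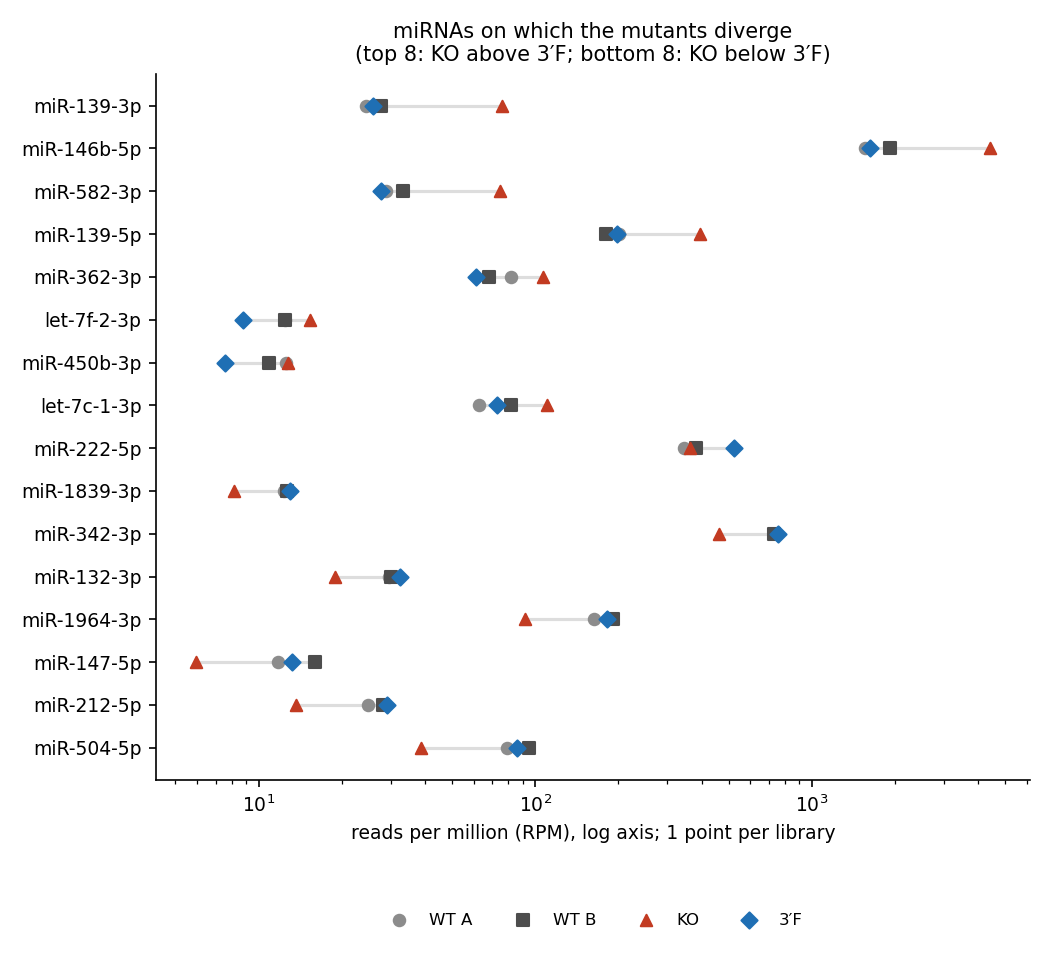
Level in RPM on a log axis in each of the 4 libraries for the 8 miRNAs with the largest difference between KO and 3′F in each direction. In most rows the KO triangle stands away from the WT points and the 3′F diamond lies within or next to them, with miR-222-5p and let-7f-2-3p among the exceptions.

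The remaining lists are read against the 15.9% of the 251 that lay above both WT libraries and the 27.5% that lay below with deposited RPM. With TMM factors these were 51 and 54 of the 251, and with RLE factors 52 and 53. Of the 10 myeloid miRNAs 8 passed the minimum, 0 lay higher in both mutants and 1 lower, with a median of -0.02. The lower one was miR-142a-3p, at 1721 and 1121 RPM in WT against 1115 in KO and 1071 in 3′F, where WT A was the high library, and it overlapped with TMM or RLE factors. Of 11 miRNAs listed as inducible by NF-kB signalling 7 passed the minimum, of which 3 lay higher in both (the Spaca6 strands), 1 lower and 2 diverged, with a median of -0.07. The lower one was miR-155-5p, which promotes inflammatory signalling, at 71.3 and 70.3 RPM in WT against 55.2 and 62.7. Of the 8 members of the Mir322 and Mir503 cluster on chromosome X 2 lay higher and 1 lower, and none was separated, whereas with TMM factors 3 lay higher, 0 lower and 1 was separated. The lymphoid list had 1 of 3 expressed members lower, and its defining member miR-150-5p was at 1.54 to 2.93 RPM. The stromal, endothelial and epithelial list had 1 of 4 higher, miR-10b-5p, and 2 lower, which were the epithelial markers miR-200b-3p and miR-200c-3p. Apart from miR-146a-5p, 0 members of any list were called by edgeR with TMM factors at the minimum of 10 RPM, whereas edgeR without TMM, DESeq2 and limma each called 3, the erythroid ones, and edgeR without a filter called 8.

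The 4 libraries differed by distances that put KO apart. The median absolute log2 ratio over the 251 miRNAs was 0.18 between WT A and WT B, 0.16 and 0.19 between 3′F and each WT library, and 0.27 between KO and either WT library. KO and 3′F were 0.21 apart. The WT libraries had 0 miRNAs at least 2-fold apart, 3′F had 5 from WT A and 2 from WT B, KO had 13 and 15, and KO and 3′F had 8 between them. With the miR-146 lines left out, the standard deviation of the log2 ratios was 0.49 for KO against either WT library, 0.29 and 0.28 for 3′F, 0.26 between the WT libraries and 0.39 between the mutants. On this measure 3′F lay about as close to each WT library as those lay to each other, and closer to them than to KO.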

How the data were processed

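Small RNA was sequenced by the authors from inserts of about 18 to 35 bp in 4 libraries of resting BMDMs. The submitters' processing notes name cutadapt 1.8.3. The aligner, counter, build and miRNA release are not given in the sources used here. The authors deposited estimated counts per mature miRNA and precursor, partly fractional (how reads that match several lines were split is not given), and RPM values, each count scaled to 1000000 counts of its library's total over 2129 lines. 0 columns of per-sample values were left unused. Capture in such libraries also depends on a miRNA's sequence, which bears on levels more than on ratios.

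For each mature miRNA the precursor line with the highest summed count was kept (1979 miRNAs), and 251 with a mean of at least 10 RPM were compared. Expected counts as deposited were rounded and tested with edgeR 4.0.16 (quasi-likelihood test, TMM factors, R 4.3.3), KO and 3′F against WT A and WT B, with Benjamini-Hochberg adjustment over all 251 and a threshold of 0.05. Separation and divergence were described on log2(RPM + 1), a scale that understates changes of low miRNAs. DESeq2 1.42.0, limma 3.58.1, other scalings, pseudocounts, minimums and left-out libraries were the alternatives. Functions were tested on simulated data. Descriptions and plots were made in Python 3.11.15 (scipy 1.17.1, pandas 2.3.3, numpy 2.4.6, matplotlib 3.10.9). Hairpin positions and sequences are RefSeq's (GRCm38.p6) and overlapping genes GENCODE's for GRCm38.

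Named are the miR-146 lines, called miRNAs, the 8 largest separated differences and the 8 largest divergences in each direction, and listed families. Members and lists were chosen with earlier results of these data known. The study's other assays were not analysed here.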

Additional observations from a re-analysis of the deposited data

Results flagged for a closer look

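For 11 of the 21 diverging miRNAs KO lay on one side of both WT libraries and 3′F on the other, and the difference between the mutants, each with 1 library, was not tested. KO was below 3′F on the log2(RPM + 1) scale by these values, given as KO minus 3′F: miR-212-5p -1.03, miR-132-3p -0.75, miR-342-3p -0.70 and miR-1839-3p -0.62. KO was above 3′F for 7 of the 11, with KO minus 3′F at 1.39 for miR-582-3p, 0.79 for miR-362-3p, 0.74 for let-7f-2-3p, 0.69 for miR-450b-3p, 0.58 for miR-194-5p, 0.55 for miR-339-5p and 0.50 for miR-324-3p. With TMM factors the last 3 were less than 0.5 apart.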

How the results depend on the processing

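The pooled test called 1 miRNA with TMM, RLE, a robust fit, a minimum of 1 or 100 RPM, or every deposited line. It called 5 with DESeq2 (1 higher, 4 lower), 4 with limma and 4 without TMM (all lower), 17 without a filter (10 higher, 7 lower) and 0 without the miR-146 lines, where 22 had an unadjusted p below 0.05. Leaving out 1 library gave 0 to 31 calls, with 12 unadjusted p below 0.05 where WT A or WT B was absent, and the lone library was then assumed to vary like the other side. The adjusted p of miR-146a-5p was 0.10 at most in those fits, at a log2 fold change of -9.73 to -8.79. Of 35 named miRNAs refitted under other scalings, tests and left-out libraries, the fold change of 12 turned, all of them diverging and none by scaling or test. With 1 library left out the range was -0.044 (without KO) to 1.34 (without 3′F) for miR-146b-5p, and between the same libraries -0.10 to 1.26 for miR-582-3p and -0.24 to 0.49 for miR-362-3p (-0.0012 without WT B). From without 3′F to without KO it was -1.18 to 0.039 for miR-504-5p, -0.97 to 0.19 for miR-212-5p, -0.96 to 0.10 for miR-1964-3p, -0.69 to 0.17 for miR-132-3p, -0.69 to 0.079 for miR-342-3p, -0.64 to 0.10 for miR-1839-3p and -0.017 to 0.58 for miR-222-5p. From without KO to without 3′F it was -0.45 to 0.28 for let-7f-2-3p (0.041 without WT A) and -0.59 to 0.10 for miR-450b-3p. The 29 separated miRNAs became 51 at a minimum of 1 RPM, 13 at 100 RPM, 109 by absence of overlap alone, 5 with a gap of at least 0.5 besides, and 80 to 117 with 1 library left out, since a lone library adds no spread. The 21 diverging miRNAs became 44 at 1 RPM, 7 at 100 RPM, 6 at a distance of at least 1, and 16 or 17 with a WT library left out. The counts under other scalings and pseudocounts stayed within 1.5 times, and the KO to 3′F distance lay between 0.18 and 0.24. Leaving out libraries for the separated and diverging classes was chosen after seeing the data. No paired analysis was possible because both mutant libraries carry the identifier A, like WT A, and WT B has no mutant partner, so that fewer than 2 identifiers are shared. Depth limits miRNAs under the minimum, where 3 counts stand for 0.157 to 0.263 RPM.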
